A study of Drosophila melanogaster with 11 samples.

Results

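Peaks of RNA hydroxymethylcytosine on the unplaced scaffolds of the Drosophila genome are described here. They were chosen as all peaks that lie on U or Uextra, the sequences that the dm3 genome build calls chrU and chrUextra, in the deposited peak lists of yellow CRISPR and dTet CRISPR S2 cells. The yellow list held 535 such peaks among 1018, and the dTet list held 371 among 964, which gives 906 of 1982 peaks in all.

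The series has 11 samples of the S2 cell line, and 6 of them are used here. The peak lists come from hMeRIP-seq, in which total RNA is pulled down with a rat monoclonal antibody to hydroxymethylcytosine and sequenced, with 1 sample of cells edited by CRISPR at yellow and 1 of cells edited by CRISPR at dTet, which the labels call dTet depletion. The RNA-seq libraries come from polyA RNA of S2 cells, 2 labelled dTet control and 2 labelled dTet knockdown. Inputs and hMeRIP of unedited cells were not analysed here. All groups share the S2 background, and the labels do not say whether the edited cells were clones or pools, nor whether replicate libraries came from separate cultures, so that p-values may measure technical spread only. With 1 hMeRIP sample per line, differences between the peak lists are differences between these samples, with no replicate check and no test of genotype. The depth of the hMeRIP libraries is unknown, and genotype, depth and library cannot be told apart.

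S2 cells are a hemocyte-like line from fly embryos. Tet enzymes oxidise methylcytosine to hydroxymethylcytosine, and yellow is a gene for cuticle pigmentation. U and Uextra are strings of scaffolds that could not be placed on a chromosome and were joined end to end, and they are rich in satellite repeats, transposon fragments, histone and Stellate-related repeats and copies of the ribosomal RNA genes. A read from a repeat can match many places in such sequence, and how such reads were placed is not given in the sources used here.

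The labels were first checked in the RNA-seq libraries. The signal of dTet, listed as CG43444, was 6.93 and 8.01 in control 1 and 2, and 4.88 and 6.60 in knockdown 1 and 2. Signal is the mean number of reads over the 40-bp bins of an exon times 1 factor per library, so it is a level per length, and 1 read in a bin was worth between 0.340 and 0.477. The knockdown libraries were the lower ones, and the change in dTet did not pass the test (log2 change of signal + 1 -0.34, SE 0.21, limma adjusted p = 0.9995 over 6050 genes). Of 5 hemocyte genes, the transcription factor srp and the secreted protein gene Hml had mean control signals of 11.9 ± 0.91 and 15.4 ± 6.68 (SD, n = 2). He and Pxn stood at 5.51 and 2.44, and NimC1, a phagocytic receptor, stood at 0.206. The peak lists hold no level with which the edits could be checked.

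Peaks on unplaced scaffolds made up a large part of both lists, and a larger part of the yellow list. They were 52.6% of yellow-list peaks and 38.5% of dTet-list peaks. By length they were 59.2% of all yellow-list sequence, or 446 kb, and 29.8% of all dTet-list sequence, or 270.5 kb. The assembled arms held 479 yellow-list and 591 dTet-list peaks, and the assembled heterochromatin sequences held 4 and 2. The yellow list thus had more peaks than the dTet list on unplaced scaffolds and fewer on the arms. Nearly all of the unplaced peaks lay on Uextra, with 514 of the yellow list (96.1%) and 361 of the dTet list (97.3%). U held 21 and 10.

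The order of widths between the lists was opposite on scaffolds and arms. On unplaced scaffolds the median width was 780 bp in the yellow list (95% interval of the median from ranks 757 to 803, quartiles 651.5 and 927.5, range 355 to 2281). It was 689 bp in the dTet list (640 to 744, quartiles 504 and 942.5, range 365 to 2154). On the arms the medians were 544 bp in the yellow list (520 to 582) and 987 bp in the dTet list (963 to 1016). The yellow list was therefore the wider on scaffolds and the narrower on the arms, and no interval of the medians overlapped its counterpart. These intervals treat peaks as independent and cover the spread among the peaks of 1 sample only. Among scaffold peaks of 500 bp or wider the order turned, with medians of 807 bp in the yellow list and 832.5 bp in the dTet list. The dTet list also had the more uneven widths on scaffolds, with 89 peaks under 500 bp against 62 in the yellow list, although it had fewer peaks in all.

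**Figure D1:**
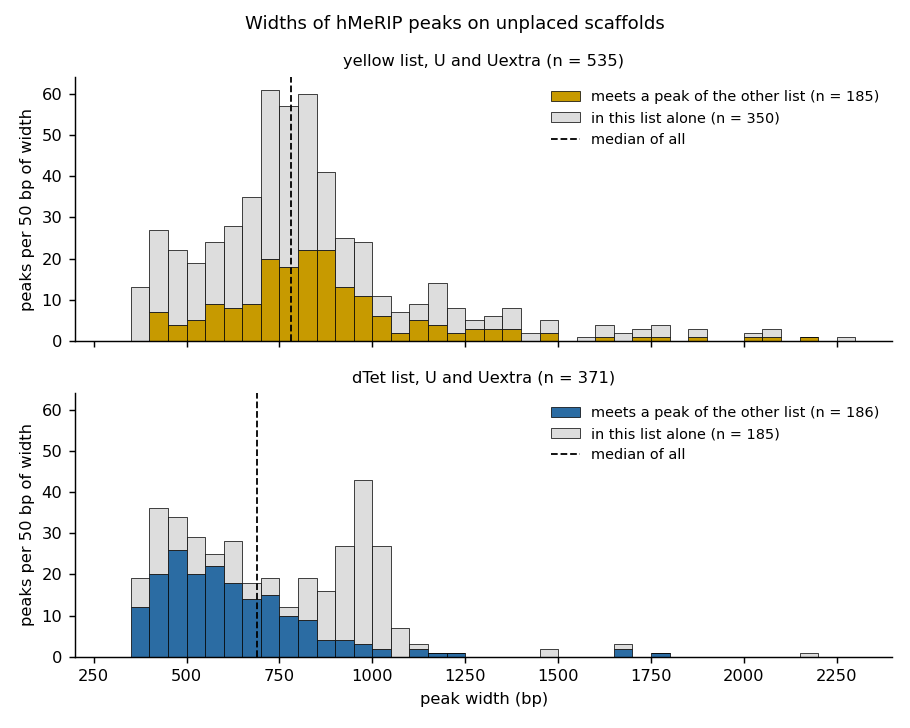
Number of peaks on U and Uextra by width in bp, stacked by whether the peak met one of the other list (coloured) or not (grey), with a dashed line at the median of each list (780 and 689 bp). The yellow-list widths gather in 1 hump, whereas the dTet list has a narrow hump made mostly of peaks that met a yellow-list peak (median 586.5 bp) and a wide one made mostly of peaks alone (median 931 bp).

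Widths also depended on whether a peak had a counterpart. In the yellow list, peaks that met a dTet-list peak had a median of 822 bp and those alone in the list had 754.5 bp. In the dTet list it was the other way round, with 586.5 bp for peaks that met a yellow-list peak and 931 bp for peaks alone. The widest peak of both lists was the yellow-list peak at chrUextra:27958238-27960518, 2281 bp wide, with no dTet-list counterpart. It was followed among yellow-list peaks alone by chrUextra:27984183-27986272 (2090 bp), chrUextra:26525643-26527703 (2061 bp), chrUextra:27366506-27368541 (2036 bp) and chrUextra:27871846-27873731 (1886 bp). All 5 lay beyond 26 Mb of Uextra. The widest dTet-list peak alone was chrUextra:15781959-15784112, 2154 bp wide, over an exon of CR41602. Next came chrUextra:23677016-23678713 (1698 bp), chrUextra:27363575-27365072 (1498 bp), chrUextra:26549075-26550559 (1485 bp) and chrU:8595750-8596880 (1131 bp), the last over the exon of CR40766. The third of these lay 1433 bp from the fourth-widest yellow-list peak alone, so wide peaks of either list could be neighbours without touching.

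Fewer peaks were shared between the lists on unplaced scaffolds than on the arms, mainly on the yellow side. An overlap of 1 bp counted as shared. Of the yellow-list peaks, 185 of 535 met a dTet-list peak (34.6%, 95% Wilson interval 30.7 to 38.7), against 71.6% on the arms (67.4 to 75.5). Of the dTet-list peaks, 186 of 371 met a yellow-list peak (50.1%, 45.1 to 55.2), against 56.2% on the arms (52.1 to 60.1). The yellow-list intervals were far apart and the dTet-list intervals overlapped. These intervals cover counting error only, and list size limits the shares. On scaffolds the dTet list was the smaller (371 against 535 peaks), so not every yellow-list peak could meet its own dTet-list peak. On the arms the dTet list was the larger, with 591 against 479 peaks. How much of the contrast follows from list size was not tested. Joined over both lists, the peaks formed 720 separate loci, of which 185 (25.7%) came from both lists, 350 (48.6%) from the yellow list alone and 185 (25.7%) from the dTet list alone. On U, 8 of 21 yellow-list peaks and 8 of 10 dTet-list peaks were shared, counts too small to set against those of Uextra.

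By length the shared part was smaller. The sequence in common came to 113 kb, which was 25.4% of yellow-list sequence and 41.9% of dTet-list sequence on the scaffolds. On the arms the same shares were 76.6% and 36.7%. Arm peaks of the yellow list were thus mostly covered, whereas the scaffold peaks were mostly not. The length of each list bounds these shares. The dTet list held 270.5 kb against 446 kb of the yellow list on scaffolds, and 636 kb against 305 kb on the arms.

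Where peaks of both lists met on a scaffold, the dTet-list peak usually lay inside the yellow-list peak, the reverse of the arms. Of 186 overlapping pairs on scaffolds, the dTet-list peak lay within the yellow-list peak in 153 and the yellow-list peak within the dTet-list peak in 10. In 21 pairs the peaks were staggered, and in 2 both ends were the same. On the arms, among 343 pairs, the same counts were 7, 283, 53 and 0. The dTet-list peak was the narrower in 165 scaffold pairs and the wider in 17, whereas on the arms it was the narrower in 14 and the wider in 329. The median ratio of dTet-list to yellow-list width was 0.690 on scaffolds (quartiles 0.589 and 0.969) and 1.64 on the arms (1.32 and 2.22). The quartile ranges did not overlap.

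Scaffold pairs often had an end in common. The starts lay within 10 bp of each other in 104 of 186 scaffold pairs (55.9%) and in 6.71% of arm pairs. The ends lay within 10 bp in 60 scaffold pairs (32.3%) and in 5.25% of arm pairs. Exactly 1 end was that close in 114 scaffold pairs, both in 25 and neither in 47. On the arms neither end was close in 304 of 343 pairs. Starts were thus close more often than ends. Over all scaffold pairs, the dTet-list start was shifted by a median of 7 bp and its end by -125 bp relative to the yellow-list peak.

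The 5 pairs with the longest common sequence all lay on Uextra. The yellow-list peak chrUextra:28093532-28095587 contained the dTet-list peak chrUextra:28093534-28095328, with 1795 bp in common. The yellow-list peak chrUextra:27809125-27811132 contained chrUextra:27809137-27810807, with 1671 bp in common. In the pair chrUextra:27685474-27686677 and chrUextra:27685476-27686674 both ends nearly coincided over 1199 bp. The last pairs were chrUextra:27825433-27826773 with chrUextra:27825437-27826546, and chrUextra:5349443-5350612 with chrUextra:5349454-5350555. In all 5 the dTet-list start lay between 2 and 12 bp inside the yellow-list start. The widest yellow-list peaks that met a dTet-list peak were chrUextra:5579505-5581668 (2164 bp), the yellow-list peaks of the first 2 pairs above (2056 and 2008 bp), chrUextra:24569825-24571678 (1854 bp) and chrUextra:23703985-23705776 (1792 bp).

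**Figure D2:**
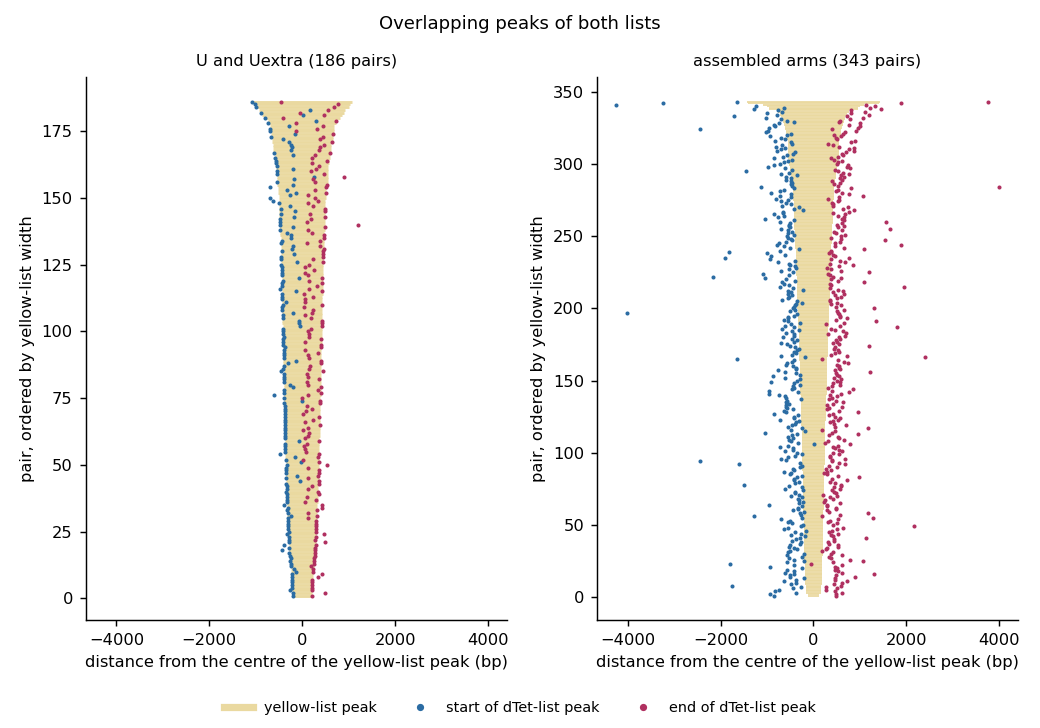
Overlapping pairs of peaks on U and Uextra and on the assembled arms, ordered by yellow-list width. Each bar spans the yellow-list peak about its centre, and the points mark the start and end of the dTet-list peak, in bp from that centre. On scaffolds the points fall inside or at the edge of the bar in most pairs (153 of 186), and on the arms outside it (283 of 343).

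Many dTet-list peaks alone had widths that fell along Uextra. This was seen in a range of widths chosen after the values were known, and over all 183 dTet-list peaks alone on Uextra Spearman's rho of width with position was -0.11. Among the 116 dTet-list peaks alone on Uextra that were between 800 and 1100 bp wide, rho was -0.70. In the same range of widths, rho was -0.31 for the 19 dTet-list peaks that met a yellow-list peak, -0.26 for the 92 yellow-list peaks alone and -0.15 for the 75 yellow-list peaks that met a dTet-list peak. These correlations are across peaks of 1 library each and are given without a test. A falling curve was then drawn through the 116 peaks as a running median of 9, a choice made after the values were seen. Within 20 bp of it lay 90 of the 183 dTet-list peaks alone on Uextra (49.2%), from which the curve itself was drawn. As close lay 2 of 178 dTet-list peaks that met a yellow-list peak (1.12%), 14 of 337 yellow-list peaks alone (4.15%) and 10 of 177 yellow-list peaks that met a dTet-list peak (5.65%). Only 19, 92 and 75 of these were between 800 and 1100 bp wide, the range the curve was drawn through. These shares are therefore not on equal terms with the 49.2%, and no conclusion is drawn from the contrast.

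The following values describe the 90 peaks, whose falling order and closeness to the curve were fixed by the way they were chosen. The first, chrUextra:4736137-4737185, was 1049 bp wide and the last, chrUextra:28099806-28100630, was 825 bp wide. Median width was 1047 bp for the 9 peaks between 10 and 15 Mb, 999.5 bp for the 28 peaks between 15 and 20 Mb (980 to 1013), 960 bp for the 33 between 20 and 25 Mb (934 to 988), 928 bp for the 7 between 25 and 27 Mb (920 to 935) and 870 bp for the 11 beyond 27 Mb (825 to 896). Neighbouring ranges from 15 to 27 Mb overlapped by a few bp. The other 93 dTet-list peaks alone on Uextra had a median width of 633 bp (381 to 2154).

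The curve peaks were scattered rather than grouped, with a median gap of 125 kb between neighbours, and 21 of 90 lay within 5 kb of a yellow-list peak. They made up 24.3% of all dTet-list peaks on scaffolds. What sets the width of these peaks was not tested.

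Peaks were spread along the scaffolds with wide gaps, which were wider in the dTet list, the list with fewer peaks there. A gap runs from the end of a peak to the start of the next and can cross a join between scaffolds. The median of 533 yellow-list gaps was 23.0 kb (95% interval 18.1 to 26.5, quartiles 8.85 and 64.3), and the median of 369 dTet-list gaps was 38.3 kb (34.4 to 47.5, quartiles 16.7 and 92.0). Gaps under 5 kb made up 14.1% of yellow-list and 7.86% of dTet-list gaps. Gaps over 100 kb made up 13.3% and 22.2%. The longest gap was almost the same in both lists, from chrUextra position 6449430 to 8322814 in the yellow list and from 6449425 to 8322697 in the dTet list (1873 kb), and it held 8 listed exons.

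**Figure D3:**
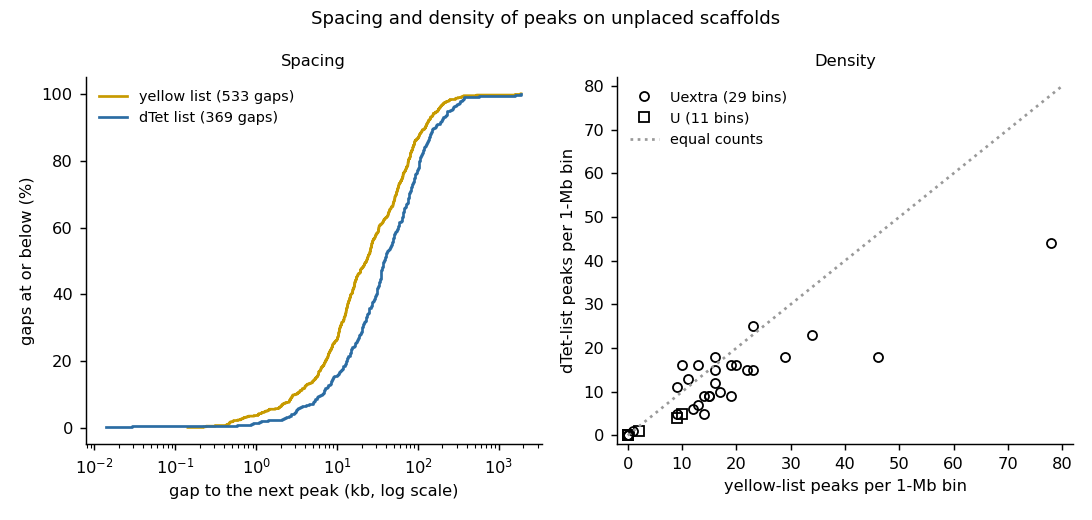
Left, gaps between neighbouring peaks of each list on U and Uextra, in kb on a log axis, as the cumulative percent of gaps, with the dTet list to the right of the yellow list over most of the range (medians 38.3 and 23.0 kb). Right, dTet-list against yellow-list peaks in each 1-Mb bin of Uextra (circles) and U (squares), where the dotted line marks equal counts and the densest bin holds 78 yellow-list and 44 dTet-list peaks.

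Peaks without a counterpart mostly had no close neighbour in the other list. For the 350 yellow-list peaks alone the median distance to the nearest dTet-list peak was 17.1 kb, and 60 (17.1%) lay within 5 kb. For the 185 dTet-list peaks alone it was 15.5 kb, and 40 (21.6%) lay within 5 kb. Most peaks alone thus lay more than 5 kb from the other list. The median gaps within the lists were themselves 23.0 kb (yellow list) and 38.3 kb (dTet list), and these distances too can cross joins between scaffolds.

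Close clusters were few and never larger than a pair. With peaks up to 1 kb apart counted as 1 cluster, the yellow list had 20 pairs, which held 40 peaks (7.48%), and the dTet list had 6 pairs with 12 peaks (3.23%). Of the yellow-list pairs, 17 lay on Uextra beyond 24 Mb and 13 beyond 27 Mb. Of the dTet-list pairs, 3 lay beyond 24 Mb and 1 beyond 27 Mb. Of all Uextra peaks, 92 of 514 in the yellow list and 49 of 361 in the dTet list lay beyond 27 Mb. The number of pairs depends on this density and on the size of a list. Both peaks of a yellow-list pair met a dTet-list peak in 3 pairs, 1 of them did in 10, and neither did in 7.

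The shortest yellow-list clusters were chrUextra:27599597-27601015, chrU:9169812-9171235, chrUextra:15544364-15545843, chrUextra:27199623-27201212 and chrUextra:28060860-28062539. The shortest dTet-list clusters were chrUextra:14417403-14418474, chrUextra:15544322-15545856, chrUextra:26396055-26397877, chrUextra:26968801-26971179 and chrUextra:20527076-20529612. The cluster near 15.5 Mb was found in both lists, with all of its peaks shared.

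Where one list was dense along the scaffolds the other was mostly dense too. Over 40 bins of 1 Mb, the counts of both lists had a Pearson's r of 0.911 and a Spearman's rho of 0.912. Over the 29 bins of Uextra r was 0.882, and without the densest bin it was 0.769. The 185 loci that came from both lists count on both sides, and 11 of the 40 bins held no peak of either list. Both can raise these values, which are descriptions only. The densest bin was 27 to 28 Mb of Uextra, with 78 yellow-list and 44 dTet-list peaks and 5 listed exons. The bin before it had 46 and 18. The yellow list had more peaks in 22 bins, and the dTet list had more in 6, all between 14 and 24 Mb of Uextra, with 25 against 23 peaks in the last of them.

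The share of peaks in both lists varied along Uextra, mainly for the dTet list. In the first 10 Mb, 42.6% of yellow-list and 72.7% of dTet-list peaks were shared. Between 10 and 20 Mb the shares were 30.8% of 156 and 36.8% of 133 (24.1 to 38.4 and 29.1 to 45.3). Between 20 and 27 Mb they were 33.7% of 172 and 46.8% of 124 (27.1 to 41.1 and 38.2 to 55.5). Beyond 27 Mb they were 33.7% of 92 and 63.3% of 49 (24.9 to 43.8 and 49.3 to 75.3). The dTet-list share thus varied more along the sequence than the yellow-list share. The peaks on the width curve, alone by selection, count in the dTet-list shares. Only 2 of them lay in the first 10 Mb and 11 beyond 27 Mb. On U, peaks of either list lay only between positions 7933779 and 9935123. In all, 11 bins held no peak of either list, 8 on U and 3 on Uextra.

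Few scaffold peaks touched an annotated exon, and those that did were mostly dTet-list peaks alone. The annotation is the exon list of the RNA-seq files, whose positions are printed as given and can be off by 1 bp. It holds 847 exons on U and Uextra, of 169 symbols. Of the yellow-list peaks, 8 of 535 touched one (1.5%, 0.76 to 2.92), and of the dTet-list peaks 28 of 371 (7.55%, 5.27 to 10.7). On the arms the shares were 80.2% and 91.7%. Only 847 of the 78680 listed exons lie on U and Uextra. The share of contacts to be had from exon density alone was not computed, so these shares are not on equal terms. By class, 27 of 185 dTet-list peaks alone (14.6%) and 7 of 350 yellow-list peaks alone (2.00%) touched an exon, and 1 pair of shared peaks did. The median distance of dTet-list peaks alone to the nearest exon was 16.7 kb, against 26.4 kb for dTet-list peaks that met a yellow-list peak and 22.6 kb for yellow-list peaks alone.

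The peaks touched 35 exons (4.13%) of 11 genes. RefSeq (assembly Release 6 plus ISO1 MT, used for names only) names a pair of them as pseudogenes of ribosomal RNA. CR41602 is 18SrRNA-Psi:CR41602, from the small-subunit RNA, and CR40596 is 28SrRNA-Psi:CR40596, from the large-subunit RNA. Of 109 scaffold exons with a ribosomal RNA name, 8 were touched, all of them in CR41602 and CR40596. The other genes with such a name, among them CR41548 with 44 exons, were not touched. The other 9 symbols (CR40503, CR40582, CR40597, CR40685, CR40766, CR41540, CR41583, CR41619 and CR41621) were not matched. None of the 127 exons of histone genes and none of the 89 exons of Su(Ste) repeats, which silence Stellate in the fly testis, was touched.

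CR41540 was touched most often. Of its 30 listed exons on the scaffolds, 7 were touched by dTet-list peaks and 2 by yellow-list peaks. All 7 dTet-list peaks, 952 to 1010 bp wide, contained the exon whole and lay on the width curve, with 158 to 328 bp before the exon and 246 to 380 bp after it. They were chrUextra:15914798-15915807, chrUextra:16370450-16371457, chrUextra:16903797-16904801, chrUextra:17065785-17066788, chrUextra:19252508-19253499, chrUextra:19808224-19809211 and chrUextra:24223324-24224275. The yellow-list peaks chrUextra:20554229-20555578 and chrUextra:24100458-24102190 were wider, at 1350 and 1733 bp, and lay over other copies. No CR41540 exon was thus touched in both lists.

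Exons of both ribosomal RNA pseudogenes were touched as well. CR40596 had 3 of 7 exons touched, each contained in a dTet-list peak of 883 to 990 bp on the width curve (chrUextra:19856666-19857655, chrUextra:23243501-23244456 and chrUextra:27554713-27555595), and none by a yellow-list peak. CR41602 had 5 of 46 exons touched, by 4 dTet-list peaks and 2 yellow-list peaks. Of these, chrUextra:10321799-10322866 (1068 bp) and chrUextra:25301426-25302354 (929 bp) lay on the curve. The fourth dTet-list peak, chrUextra:12926764-12927194, met the yellow-list peak chrUextra:12926757-12927396, and both held the same listed exon of 9 bp. This was the single scaffold exon touched in both lists. The yellow-list peak chrUextra:24833623-24834743 covered another copy.

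CR40685 was touched in another way. Its 6 dTet-list peaks were 384 to 802 bp wide, none lay on the curve and none contained its exon whole. They lay at chrUextra:9741168-9741574, chrUextra:10068806-10069231, chrUextra:14367987-14368370, chrUextra:17735839-17736299, chrUextra:18951656-18952457 and chrUextra:20718131-20718557, over 6 of 45 listed exons. In 2 of them the peak lay wholly inside the exon. CR41583 (dTet-list peaks of 400 and 526 bp), CR41619 (515 and 625 bp) and CR41621 (832 and 867 bp) also had only peaks off the curve in the dTet list.

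The remaining contacts were mostly at the edge of a peak. CR41583 had 1 yellow-list peak of 909 bp with 28 bp in common with the exon. CR40597 had 1 dTet-list peak, the last on the curve, with 41 bp in common, and 1 yellow-list peak of 1294 bp with 48 bp in common. CR40503 and CR40582 had 1 yellow-list peak each, with 24 and 25 bp in common. At a minimum of 50 bp in common, the number of yellow-list peaks with an exon was 3 in place of 8, and the number of dTet-list peaks 25 in place of 28. Of 28 dTet-list peaks with an exon, 13 lay on the curve and 16 contained the exon whole. Contact was about as common off the curve as on it. An exon was touched by 13 of the 90 curve peaks (14.4%) and by 13 of the other 93 dTet-list peaks alone on Uextra.

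**Figure D4:**
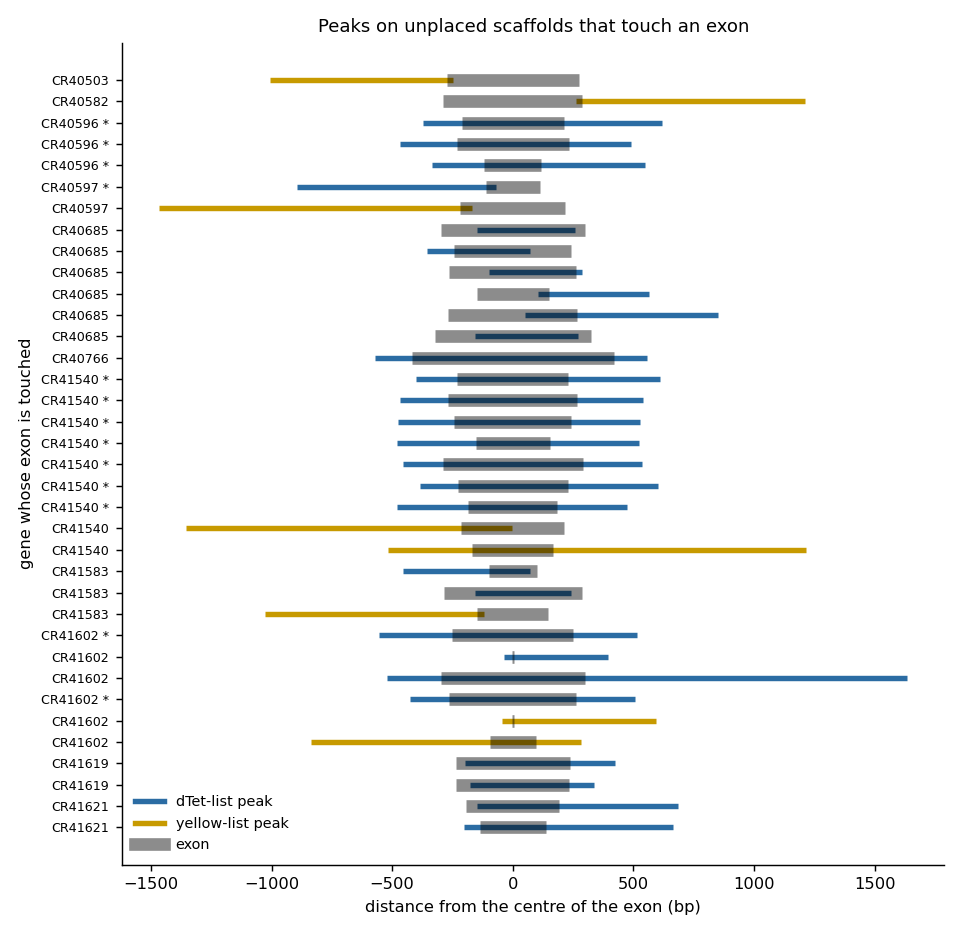
Every contact of a scaffold peak with a listed exon, centred on the exon, in bp. Blue bars are dTet-list peaks, yellow bars yellow-list peaks and grey bars exons, and an asterisk marks a dTet-list peak on the width curve. All 7 dTet-list peaks over CR41540 and all 3 over CR40596 reach past both ends of the exon, and the 6 over CR40685 do not.

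Most touched exons were listed at 0 in polyA RNA. Of the 847 scaffold exons, 124 (14.6%) had a signal above 0 in any of the 4 libraries, against 62.9% of exons on the arms. Of the 35 touched exons, 12 (34.3%) had a signal above 0 in any library, 23 were listed at 0 in all 4, and 1 had a mean signal of 1 or more. The share above 0 was thus higher among touched exons than among all scaffold exons, a description with no test. All 12 lay under dTet-list peaks, and several were copies of CR41540. Every exon touched by a yellow-list peak was listed at 0 in all 4 libraries. The hMeRIP samples were made from total RNA and the RNA-seq libraries from polyA RNA, so these levels do not cover transcripts without a polyA tail. Copies of a repeat share a symbol here, and which copy a read came from is uncertain.

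The touched exon with the most signal was the CR41540 exon at chrUextra:24223620-24223987, within the dTet-list peak chrUextra:24223324-24224275. Its signal was 3.91 in control 1, 2.54 in control 2, 4.54 in knockdown 1 and 4.53 in knockdown 2. Both knockdown libraries were above both controls, with means of 4.53 ± 0.01 and 3.22 ± 0.97 (SD, n = 2 each). The nearest yellow-list peak was 4.74 kb away.

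The CR40766 exon at chrU:8595903-8596740 had 0.744 and 0.372 in controls 1 and 2, against 0.390 and 1.41 after knockdown, and the groups overlapped. The CR40596 exon at chrUextra:23243733-23244198 had 0 and 0.553 against 0.186 and 0.397. The CR41540 exon at chrUextra:19808381-19808835 had 0.340 and 0.390 against 0.372 and 0.635. The groups overlapped for these exons as well. The CR41602 exon at chrUextra:15782179-15782776, under the widest dTet-list peak, had 0.340 and 0.469 against 0 and 0.159, with the knockdown libraries below the controls. The CR41540 exon at chrUextra:16370651-16371185, within another dTet-list peak on the width curve, had 0.243 and 0.279 against 0 and 0. Its knockdown libraries were thus below the controls too, at signals near 0.

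Among the scaffold genes without a peak in an exon, few had much signal. Levels here are means over all listed exons of a gene, overlapping ones included. CG17691, now BckdhB, a subunit of the branched-chain keto acid dehydrogenase, had 5.23 ± 0.08 among controls against 5.79 ± 0.89 after knockdown (SD, n = 2 each). With only the longest of overlapping exons kept, as for dTet and the hemocyte genes above, its signal was 5.63 and 5.52 in controls 1 and 2. In knockdown 1 and 2 it was then 6.40 and 5.08, so the groups overlapped. Its nearest peak was 6749 kb away on U. Maf1, a repressor of RNA polymerase III, had 0.726 in the controls, and CR40679 had 0.797. The Maf1 value averages 12 listed exons, of which 3 had control means of 2.92 to 5.17. The other genes among the 10 highest of those without a peak were Su(Ste):CR42428 (0.445), CG41527 (0.304), His3:CG33821 (0.221), CR40611 (0.219), CG41520 (0.193), CR40728 (0.170) and CR41548, a copy of the small-subunit ribosomal RNA gene (0.0977). CG17691 was the only 1 of these 10 with a mean control signal above 1. Along Uextra the number of listed exons per 1-Mb bin had an r of -0.18 with yellow-list peaks and 0.01 with dTet-list peaks (29 bins).

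No scaffold exon passed the test between dTet knockdown and control. Of 27881 exons with a mean signal of 1 or more, limma called 0 at an adjusted p under 0.05 (0% called) and 1076 had an unadjusted p under 0.05 (3.86%). On U and Uextra, 16 exons of 4 genes were tested, 0 were called and 0 had an unadjusted p under 0.05. The log2 change of these 16 (knockdown minus control, on log2 of signal + 1) ranged from -0.59 to 0.58, with a median of 0.14 against 0.02 over all exons tested. It was above 0 in 11 and below 0 in 5. The exons were 10 of CG17691, 3 of Maf1, 2 of CR41540 and 1 of CR41602, and exons of a gene are not independent.

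The CR41540 exon under the dTet-list peak had a log2 change of 0.41 (SE 0.37, unadjusted p = 0.295, limma adjusted p = 0.999), and the range was 0.17 to 0.65 with each library left out in turn. The other CR41540 exon tested, at chrUextra:15092741-15093324, had 0.14, and the sign turned when control 1 or knockdown 1 was left out. The CR41602 exon of 3 bp at chrUextra:22807711-22807714 had -0.53. Neither of the latter exons was under a peak, and none of the 3 passed the test.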

How the data were processed

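Of 11 samples, 6 were used: 4 polyA RNA-seq and 2 hMeRIP-seq libraries of S2 cells, grouped by their labels. Reads were aligned with BWA to dm3 and peaks called with MACS 1.4, per the submitters' processing notes. The peak threshold, use of the input, counter, annotation and treatment of reads with several matches are not given in the sources used here. The deposited peak lists hold positions, with no score or depth. The RNA-seq signal is a deposited value per exon. Its form was read from the values: times the number of 40-bp bins and divided by the value of 1 read, 100% of 27100 to 28045 exons per library, with up to 100 reads, gave whole reads within 0.05. Absolute depth is unknown.

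Peak starts were counted from 1. Overlaps were computed in Python and checked with bedtools 2.31.1. For knockdown against control, log2(signal + 1) was fitted in R 4.3.3 by limma 3.58.1 (lmFit, then eBayes, its variance trend on) and tested two-sided over all exons with a mean signal of 1 or more, with Benjamini-Hochberg adjustment and a threshold of 0.05. Fold changes on this scale understate the change of low exons. Intervals are 95% Wilson or rank intervals.

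Text names the 5 widest peaks of each class (both lists, yellow alone, dTet alone), the 5 clusters with the most peaks per list (ties by shorter span), the 5 pairs with the longest common sequence, every gene touched and the 10 other scaffold genes with the highest control signal. Members and lists were chosen with earlier results of these data known. The width curve (a running median made non-increasing) was added after its values were seen. Alternatives changed the peaks kept, overlap, gap, bins, exon contact, pseudocount, filter, trend, block, feature and libraries.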

Additional observations from a re-analysis of the deposited data

How the results depend on the processing

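Of 100 alternatives over 20 results, 78 were labelled the same, 20 moved and 2 reversed in sign. The label of same did not always mean a near value. At a gap of 2000 bp it was given to 29 yellow-list clusters against 20. Without control 2 it was given to a log2 change of 0.51 against 0.14, for the CR41540 exon at chrUextra:15092741-15093324. With U alone the counts were 21 and 10 peaks (yellow and dTet list), the median widths 662 and 807 bp, the median gaps 81.7 and 134.8 kb and the shared part of the dTet list 80%. With peaks of 500 bp or wider the median widths were 807 and 832.5 bp, which turned the order of the lists, the shared parts 26.4% and 44.3%, and the dTet-list median gap 48.5 kb. With 50% of both peaks covered, 44.7% of dTet-list peaks were shared, and 65.9% (184 of 279) without the 90 peaks alone and 2 shared peaks on the width curve. The last was added after seeing the data, and the rise follows from drawing the curve through peaks alone. Clusters numbered 10 and 2 at a gap of 500 bp, and 60 and 27 at 5000 bp. Yellow-list peaks with an exon numbered 3 at 50 bp in common and 3 at 50% of the exon.

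The log2 change of the CR41540 exon at chrUextra:15092741-15093324 was -0.24 without control 1 and -0.18 without knockdown 1, with a range of -0.24 to 0.51 over libraries left out. The number of exons called was 0 in every limma alternative, and 669 to 2713 had an unadjusted p under 0.05 with a library left out. With the replicate number as a block 0 exons were called and 1232 had an unadjusted p under 0.05, against 1076. Deviations of control 1 and knockdown 1 had an r of 0.015 over 27881 exons, and the labels do not say that numbers pair the libraries. The peak lists have 1 sample per line and no depth, which limits every comparison of the lists.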
